A study of Bos taurus and Ovis aries and Capra hircus with 27 samples.

Results

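Potassium channels are membrane pores that let potassium ions leave or enter a cell, and they share a short stretch of protein, the selectivity filter, whose backbone oxygens line the pore and pass potassium while holding back sodium. Of the 22131 goat gene models with expression values, 40 were taken because their predicted protein holds the filter written in single-letter amino acids as TVGYG or TIGYG and their identifier carries no copy suffix. The rule used protein sequence only and no expression value. Proteins were found for 18215 of the models (82.3%), and the 3916 models without one could not be searched. A further 2 models hold the filter but carry a copy suffix (GOAT_ENSP00000383330-D3 and GOAT_ENSBTAP00000009938-D2), and they are described below among the relatives.

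The series holds 27 messenger RNA libraries of cattle, sheep and goat tissues (heart, liver and kidney), of which the 9 goat libraries (3 per tissue) are described here. Per the labels, the goats were an indigenous strain about 3 years of age, and per the study's methods the sampled animals of each population were unrelated adult females. Every library was made from whole tissue, so that fewer cells of a type and less RNA per cell cannot be told apart in any value below. Per the study's methods, the tissues of a population came from the same 3 animals, while the labels do not say which libraries share an animal. The main comparison of tissues did not pair the libraries, and pairing by replicate number was an alternative. Values are FPKM, in which fragments are divided by transcript length and by the number mapped in that library, so that levels can be set side by side between genes. Summed FPKM lay between 574638 and 828807 per library. No file paired the goat identifiers with gene symbols, so models are called by their identifiers, the tissue labels were not checked against marker genes, and the named accessory subunits of these channels are not analysed here.

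Potassium channel proteins fall into a few classes. Inward rectifiers have a membrane segment on either side of the pore and hold the resting potential of cells such as heart muscle. Voltage-gated (Kv) channels add a voltage sensor with regularly spaced basic residues and repolarise excitable cells, and the Kv7 class among them also works in epithelia. Calcium-activated channels of large (BK) and intermediate (IK) conductance open when calcium rises, and tandem pore channels carry a second pore in the same protein and leak potassium at rest. Epithelia such as kidney tubules use potassium channels to recycle potassium and to drive transport.

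The letters around the filter were used to place the models, in groups chosen after the sequences and values had been seen. They are shown because the class of each model rests on them. Of the 40 models, 34 have a hydrophobic stretch of 19 residues that starts within 20 residues after the first letter of the filter, the layout of a channel pore, and these are called channel-type models below. The other 6 do not, and none of them aligned with a channel-type protein across the filter. In 8 models the filter TIGYG comes after a glutamate, a serine or threonine and a glutamine or glutamate (inward rectifier type). The Kv type (14 models) has TVGYG followed by aspartate, the Kv7 type (3 models) has TIGYGDK, the BK type (1 model) has TVGYGDVYAKT, the IK type (1 model) has TIGYGD after phenylalanine and leucine, and the tandem pore type (7 models) has TIGYG after threonine and before asparagine, histidine or lysine. Within a class the residues that follow still varied, from TVGYGDMY, TVGYGDMV and TVGYGDIY to TVGYGDTH among the Kv type and from TIGYGFRC to TIGYGVRS and TIGYGTMF among the inward rectifier type.

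Some other features, which the rule did not use, went with these groups, themselves chosen with the sequences known. Inward rectifier type proteins were 307 to 427 residues long and had 1 hydrophobic segment before the filter in 8 of 8 models. All 8 also had 1 segment after it, but a segment there was required of every channel-type model. Among Kv type proteins (208 to 712 residues), 12 of 14 had a run of at least 4 basic residues, each 3 positions after the last, upstream of the filter. Such a run was found in 0 of 3 Kv7 type models, where the longest had 3 residues, and in 0 of 1 BK type model. It was also present in 1 of 8 inward rectifier type models, GOAT_ENSP00000306497. A second pore-like stretch was present in 6 of 7 tandem pore type proteins, and the model without it was the shortest, GOAT_ENSBTAP00000004382, at 133 residues. Such a stretch (TLGLG) was also present in 1 of the 6 models that are not of the channel type, GOAT_ENSBTAP00000012129. The BK type protein was the longest of the channel type, at 1111 residues. The closest pair in sequence was GOAT_ENSBTAP00000022142 and GOAT_ENSP00000358784, both of the Kv type, with 81.6% identity over 472 aligned residues. Predicted proteins may be incomplete, since 21 of the 40 did not begin with methionine.

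**Figure D1:**
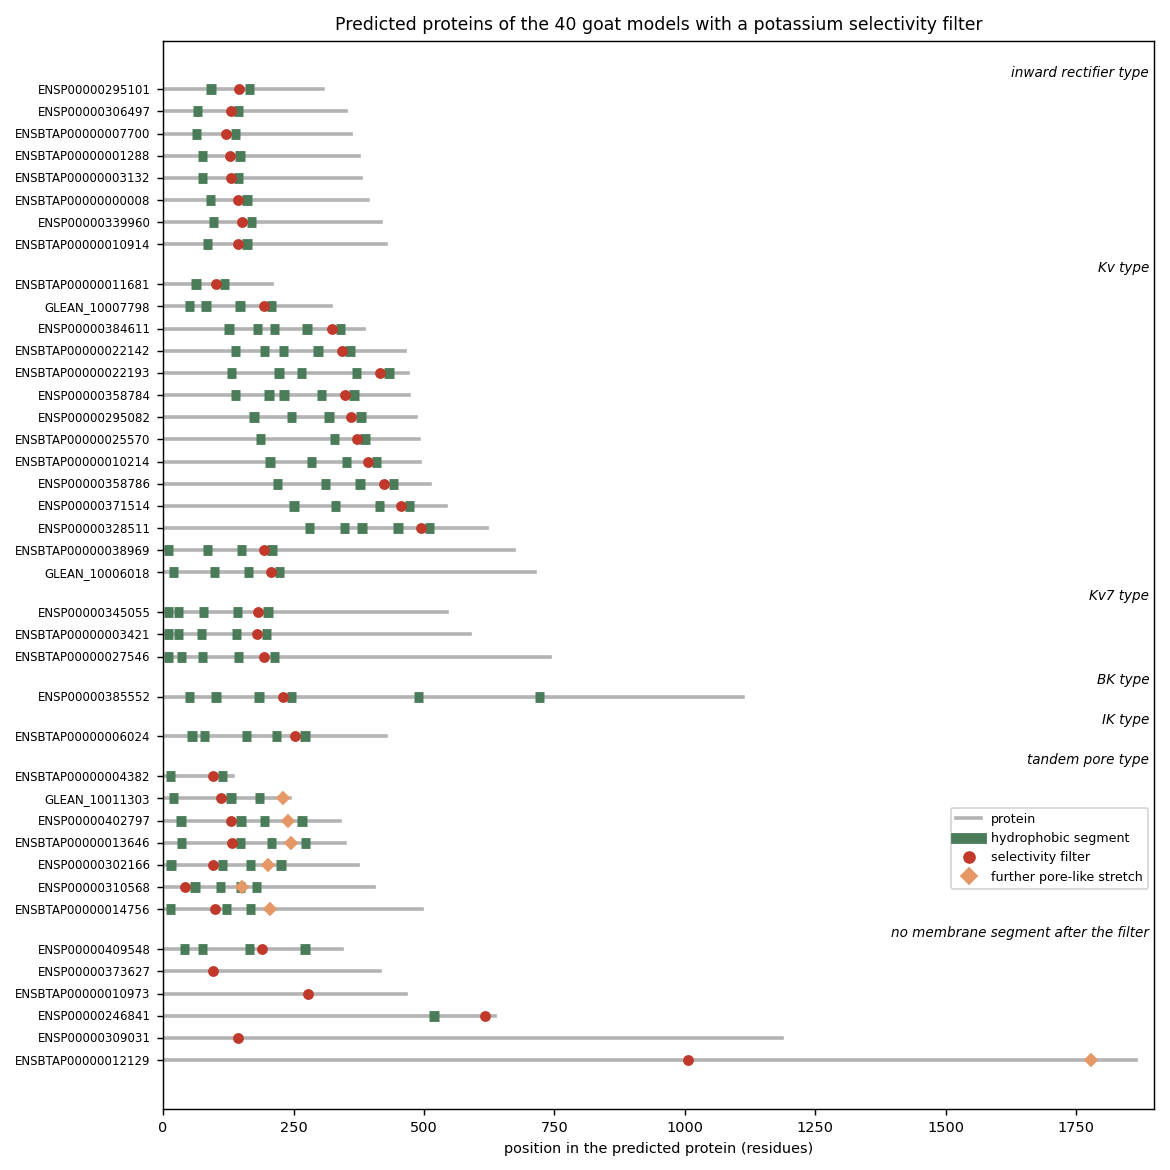
Predicted proteins of the 40 models, drawn to scale in residues along the horizontal axis and grouped by class, with identifiers shortened by their goat prefix. Grey lines are proteins, green blocks hydrophobic segments of 19 residues, red circles the selectivity filter and orange diamonds a further pore-like stretch. Inward rectifier type models carry 1 green block on either side of the filter, and 6 of 7 tandem pore type models carry an orange diamond after it.

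Few of these channels were abundant in the 3 tissues, and the most abundant model differed from tissue to tissue. Among the 34 channel-type models, 6 had a mean above 0.5 FPKM in heart (17.6%), 3 in liver (8.82%) and 12 in kidney (35.3%). Over all 22131 models, the shares were 53.7% in heart, 53.4% in liver and 58.4% in kidney. Inward rectifier type models made up most of the channel signal in heart, a BK type and a tandem pore type model most of it in liver, and a Kv type model together with tandem pore and Kv7 type models most of it in kidney. Summed over the channel-type models, the level was 109 ± 5.01 FPKM in heart (SD, n = 3), 35.1 ± 9.87 in liver and 45.3 ± 7.499 in kidney. A single model gave 72.7% of the heart sum, 47.5% of the liver sum and 45.7% of the kidney sum.

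**Figure D2:**
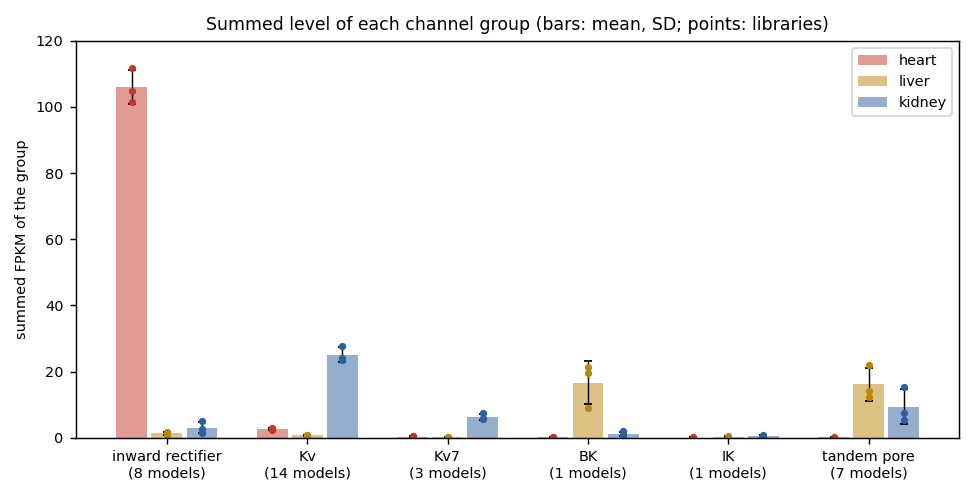
Summed FPKM of each class of channel-type models in heart, liver and kidney, with bars for the mean of 3 libraries, error bars for the SD and points for libraries. The inward rectifier type reached 106 FPKM in heart against 1.27 in liver and 3.08 in kidney, and the Kv type 25.0 in kidney.

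Tissues were compared with limma on log2(FPKM + 1), fitted over the 13634 models that exceeded 0.5 FPKM in 3 or more goat libraries, and a model was called where the Benjamini-Hochberg adjusted p over those models was at or below 0.05. Of the 40 members, 15 passed that filter (11 of the channel type), and 23 channel-type models were not tested. Among the 11 tested, 5 exceeded 0.5 FPKM in the libraries of 1 tissue only and none did so in every library. These 5 were GOAT_ENSP00000306497, GOAT_ENSP00000339960 and GOAT_ENSP00000295101 in heart and GOAT_ENSP00000345055 and GOAT_ENSBTAP00000022142 in kidney. A model that passed only through the tissue where it is high had to differ, so the counts and p-values below are a description. In heart against liver, 8 of the 11 were called (6 higher in heart, 2 higher in liver), while 49.2% of all models tested were called (29.6% higher in heart and 19.6% higher in liver). In heart against kidney, 10 were called (4 higher in heart, 6 higher in kidney), against 63.2% of all models (17.9% and 45.3%). In liver against kidney, 7 were called (2 higher in liver, 5 higher in kidney), against 65% of all models (13.4% and 51.6%). Without the filter on low values, 29 of the 34 channel-type models were tested among 17285 models above 0 somewhere. Calls then numbered 9 in heart against liver (39.3% of all models), 16 in heart against kidney (52.2%) and 12 in liver against kidney (53.9%), and 7 of the 29 were elevated in kidney, that is, called higher there than in both other tissues (28.4%).

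The median difference over all tested models was 0.10 on the log2 scale for heart minus liver, -0.55 for heart minus kidney and -0.69 for liver minus kidney. The medians of the 11 channel-type models were 0.58, -0.62 and 0. The median of 0 is the value of GOAT_ENSP00000306497, which had no signal in either liver or kidney. GOAT_ENSP00000295101 (0.075) and GOAT_ENSP00000339960 (0.19) also had means of at most 0.251 FPKM in both tissues. The liver minus kidney median therefore does not show whether the channel-type models share the shift seen over all models. After scaling by median ratios, which brought the medians over all 13554 models then tested to -0.04, -0.03 and -0.00, the calls among the 10 channel-type models still tested were 6 higher in heart and 2 higher in liver, 4 higher in heart and 3 higher in kidney, and 2 higher in liver and 3 higher in kidney. The corresponding shares over all models were 27.2% and 27.2%, 29.2% and 28.7%, and 26.9% and 25%.

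**Figure D3:**
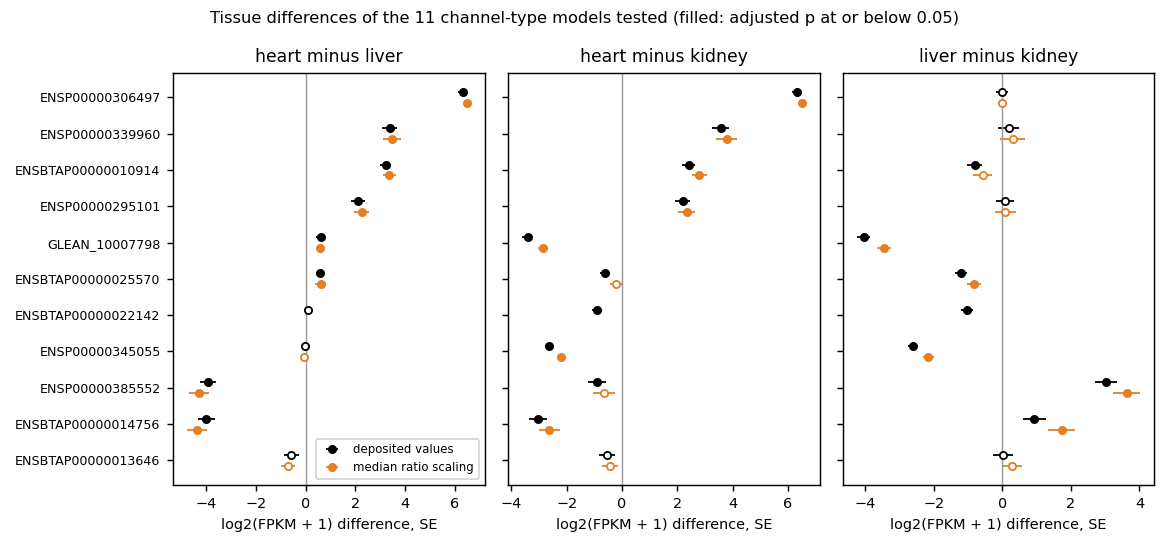
Difference between tissues for the 11 channel-type models tested, on the log2(FPKM + 1) scale with SE, for the deposited values (black) and after median ratio scaling (orange, 10 models). Filled points passed an adjusted p of 0.05. The 4 inward rectifier type models at the top lie to the right in both comparisons with heart, and GLEAN_10007798 lies far to the left in both comparisons with kidney.

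The tested channel-type models elevated in heart were of the inward rectifier type. In heart, 4 of the 11 tested channel-type models were elevated, all of this type, beside 14.5% of all models tested. Without the filter on low values 5 of 29 were elevated there, beside 11.9% of all models, and the fifth was the low Kv type model GOAT_ENSP00000358784 (limma adjusted p 0.00826 against liver and 0.0214 against kidney). The other 4 inward rectifier type models did not pass the filter.

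The most abundant was GOAT_ENSP00000306497 (scaffold 698, 253367 to 254416, minus strand), with TIGYGFRC at the filter. Its level was 62.1, 84.5 and 91.5 FPKM in the 3 heart libraries, and it was listed at 0 in the 3 liver libraries and in the 3 kidney libraries. It ranked 1043 among all models by mean level in heart. A listed 0 may stand for an estimate that failed, so no fold change is given. The differences from liver and from kidney passed with limma adjusted p of 7.19e-09 and 1.54e-08. These p-values take each listed 0 as measured, in a model that passed the filter through heart alone.

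GOAT_ENSP00000339960 (scaffold 274, 369274 to 373928, minus strand) was next in this class in heart, at 20.7, 10.7 and 7.54 FPKM. Liver libraries held 0.107, 0.488 and 0.158 FPKM and kidney libraries 0.167, 0.0993 and 0. The lowest heart library was thus above every liver and kidney library, although heart 1 held more than the other heart libraries. The difference was 3.38 ± 0.31 (log2, SE) from liver (limma adjusted p 1.53e-05) and 3.57 ± 0.31 from kidney (adjusted p 1.06e-05). This model also passed the filter through heart alone.

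GOAT_ENSBTAP00000010914 (scaffold 537, 3717341 to 3718624, minus strand) shares TIGYGFRC with the most abundant model. Its level was 13.5, 7.37 and 7.11 FPKM in heart, 0, 0.0989 and 0.108 in liver and 0.730, 0.906 and 0.980 in kidney. The tissues did not overlap. Heart exceeded liver by 3.22 ± 0.23 (limma adjusted p 2.69e-06) and kidney by 2.41 ± 0.23 (adjusted p 1.99e-05) on the log2 scale. Its small difference of liver from kidney, -0.81 ± 0.23 (adjusted p 0.0116), did not pass after median ratio scaling (adjusted p 0.113).

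GOAT_ENSP00000295101 (scaffold 430, 2877989 to 2888857, minus strand) was the lowest of the 4, at 4.76, 1.75 and 4.99 FPKM in heart. It was 0, 0.0780 and 0.0851 FPKM in liver and listed at 0 in the 3 kidney libraries. Heart 2 lay well under the other heart libraries and still above every liver and kidney library. The difference of heart from liver was 2.11 ± 0.27 on the log2 scale (limma adjusted p 0.000155), and the difference from kidney passed with an adjusted p of 0.000108. These p-values take each listed 0 as measured, and this model too passed the filter through heart alone.

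The remaining inward rectifier type models were low everywhere. GOAT_ENSBTAP00000000008 was highest in kidney, where its libraries spread from 0.125 over 1.02 to 3.25 FPKM, the highest value among the channel-type models not tested. It lies 65.4 kb from GOAT_ENSP00000339960 on scaffold 274, on the opposite strand, its liver libraries held 0.118, 0.170 and 0.302 FPKM and its heart libraries 0, 0 and 0.0615. Kidney 1 lay within the liver range, and the higher mean in kidney came from the other kidney libraries. GOAT_ENSBTAP00000003132 had a mean of 0.163 FPKM in heart, 0.267 in liver and 0.481 in kidney, and GOAT_ENSBTAP00000001288 had 0.286, 0.433 and 0.144. GOAT_ENSBTAP00000007700, whose gene model overlaps another (GOAT_ENSP00000386765), was above 0 in 1 kidney library only, at 0.0780 FPKM.

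In kidney, 4 of the 11 tested channel-type models were elevated, 3 of the Kv type and 1 of the Kv7 type, beside 34.2% of all models tested. After median ratio scaling 2 of the 10 channel-type models still tested were elevated, beside 16.3% of all models. Both were among these 4, of which GOAT_ENSBTAP00000022142 was no longer tested.

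The highest of them was goat_GLEAN_10007798 (Kv type, scaffold 460, 967822 to 972962, minus strand), with TVGYGDMH at the filter and 7 basic residues in that spacing. Kidney libraries held 22.9, 19.998 and 19.2 FPKM, heart libraries 0.648, 1.56 and 0.971, and liver libraries 0.347, 0.328 and 0.266. It made up 82.8% of the summed Kv type level in kidney. The kidney libraries stood far above the others. On the log2 scale, heart minus kidney was -3.42 ± 0.19 (limma adjusted p 7.84e-07) and liver minus kidney -4.04 ± 0.19 (adjusted p 2.92e-07). Heart was also above liver, by 0.62 ± 0.19 (adjusted p 0.0229), a call that was lost without heart 2, heart 3, liver 2 or liver 3 and ranged from 0.46 without heart 2 to 0.64 without heart 3 among these. It was also lost with libraries scaled to the same summed FPKM (0.45, adjusted p 0.0685).

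This model lies in a row of 3 Kv type models on 1 strand of scaffold 460. GOAT_ENSP00000358784 is 82.9 kb away and 73.8% identical over 325 residues, and GOAT_ENSP00000358786 is 176 kb away and 72.8% identical over 243 residues. The neighbours did not share its level in kidney. GOAT_ENSP00000358784 held 0.288, 0.725 and 0.258 FPKM in heart, 0 in each liver library and 0.0533, 0.145 and 0.0554 in kidney. GOAT_ENSP00000358786 was listed at 0 in all 9 libraries. How reads shared by such close copies were assigned is not given in the sources used here.

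GOAT_ENSP00000345055 (Kv7 type, scaffold 674, 532983 to 746888, plus strand) was 6.43, 5.12 and 4.998 FPKM in kidney. It was at most 0.0967 FPKM in any heart library and at most 0.113 in any liver library. The heart minus kidney difference was -2.63 ± 0.15 (log2, limma adjusted p 7.07e-07) and the liver minus kidney difference -2.61 ± 0.15 (adjusted p 7.29e-07). This model passed the filter through kidney alone. Both other Kv7 type models were also highest in kidney at low levels, GOAT_ENSBTAP00000003421 with a mean of 0.514 FPKM and GOAT_ENSBTAP00000027546 with 0.300. Neither passed the filter.

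A pair of further Kv type models in kidney were low. GOAT_ENSBTAP00000022142 (scaffold 748, 1712185 to 1713579, minus strand) held 1.15, 0.726 and 1.77 FPKM in kidney and at most 0.241 FPKM in any heart or liver library. The heart minus kidney difference was -0.91 ± 0.18 (log2, limma adjusted p 0.00193) and the liver minus kidney difference -1.02 ± 0.18 (adjusted p 0.000977). This model, too, passed the filter through kidney alone. It was not tested after median ratio scaling, where it no longer passed the filter. GOAT_ENSBTAP00000025570 (scaffold 893, 1090753 to 1092222, plus strand) held 1.73, 1.95 and 1.62 FPKM in kidney, 1.20, 0.399 and 0.888 in heart and 0.1905, 0.179 and 0.241 in liver. The order kidney, heart, liver had no overlap between tissues. Liver minus kidney was -1.20 ± 0.18 (adjusted p 0.00035). Heart minus kidney, -0.62 ± 0.18 (adjusted p 0.0133), did not pass after median ratio scaling (-0.23, adjusted p 0.374), and heart minus liver, 0.58 ± 0.18 (adjusted p 0.0235), was lost without heart 1 (0.43), heart 3 (0.54) or liver 2 (0.56) and with the same summed FPKM (0.43, adjusted p 0.0569).

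Of the other 11 Kv type models, 3 were listed at 0 in all libraries. GOAT_ENSP00000295082 was the highest, with 1.21, 0.952 and 0.398 FPKM in kidney and at most 0.251 FPKM elsewhere. It had kidney libraries above 0.5 FPKM in only 2 cases and so was not tested.

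In liver, 2 of the 11 tested channel-type models were elevated, beside 9.59% of all models tested. They came from the BK type and the tandem pore type.

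GOAT_ENSP00000385552, the BK type model (scaffold 509, 1843170 to 2371463, plus strand), belongs to channels that open with calcium and voltage together. Its level was 21.4, 19.5 and 9.10 FPKM in liver, 1.91, 0.673 and 0.751 in kidney and 0.154, 0.0993 and 0.0397 in heart. The tissues did not overlap. Liver exceeded heart with a heart minus liver difference of -3.93 ± 0.32 (log2, limma adjusted p 8.01e-06) and kidney with a liver minus kidney difference of 3.03 ± 0.32 (adjusted p 4.59e-05). The heart minus kidney difference, -0.90 ± 0.32 (adjusted p 0.0357), did not pass after median ratio scaling (-0.66, adjusted p 0.187), and it was lost without any 1 of the heart libraries (-0.93 without heart 1, -0.90 without heart 2, -0.86 without heart 3) or without kidney 1 (-0.64).

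GOAT_ENSBTAP00000014756, a tandem pore type model (scaffold 975, 1579956 to 1618322, minus strand), was high in liver and kidney. Liver libraries held 21.2, 12.1 and 13.4 FPKM, kidney libraries 12.7, 4.49 and 6.97, and heart libraries 0, 0 and 0.0497. Kidney 1 lay within the liver range and the other kidney libraries below it. Heart was lower than liver (-3.99 ± 0.33, limma adjusted p 8.01e-06) and than kidney (-3.05 ± 0.33, adjusted p 4.56e-05) on the log2 scale. Liver exceeded kidney by 0.93 ± 0.33 (adjusted p 0.0318), which was lost without liver 1 (0.70, adjusted p 0.106), kidney 2 (0.62, adjusted p 0.121) or kidney 3 (0.89, adjusted p 0.0797), and which was 1.73 ± 0.39 (adjusted p 0.00527) after median ratio scaling.

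Its neighbour on the same strand, GOAT_ENSBTAP00000013646, 63.4 kb away and also of the tandem pore type, was much lower. It held 0.675, 0.272 and 0.686 FPKM in liver, 1.56, 0.344 and 0 in kidney and 0, 0 and 0.0963 in heart, and none of its 3 comparisons passed. GOAT_ENSP00000302166 was the only other tandem pore type model above 0.5 FPKM in any library, with 1.06, 0.415 and 0.475 FPKM in kidney. Of the 5 tandem pore type models that were not tested, 2 were listed at 0 in all libraries.

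The IK type model, GOAT_ENSBTAP00000006024, was at most 0.935 FPKM, in kidney 3, and at 0 in kidney 1. Of the 23 channel-type models that were not tested, 16 did not exceed 0.5 FPKM in any library, 5 of them listed at 0 throughout, and the other 7 exceeded it in too few libraries.

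**Figure D4:**
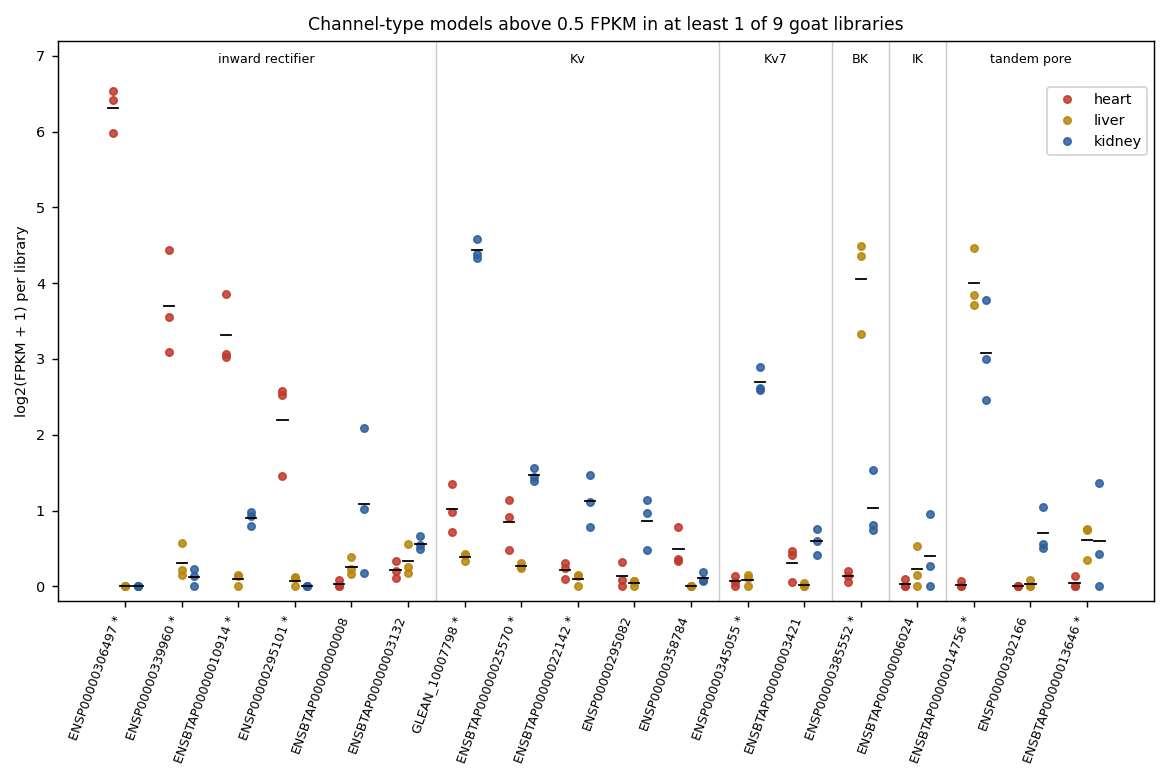
Values on the log2(FPKM + 1) scale of the 18 channel-type models above 0.5 FPKM in at least 1 library, with a point per library and a line at the mean of 3, by tissue and class. Stars mark the 11 models tested. GOAT_ENSP00000306497 stands highest in heart, GLEAN_10007798 in kidney, and GOAT_ENSP00000385552 and GOAT_ENSBTAP00000014756 in liver.

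The 6 models without a hydrophobic segment starting within 20 residues of the filter included some of the most abundant members. GOAT_ENSP00000409548 held 35.0 to 44.7 FPKM in heart, 29.1 to 74.6 in liver and 38.3 to 64.6 in kidney, with overlap between tissues and no call. GOAT_ENSBTAP00000012129, a protein of 1865 residues, held 36.7, 30.7 and 28.2 FPKM in kidney against 9.80 to 11.6 in heart and 7.62 to 8.83 in liver. Kidney was higher in both comparisons (heart minus kidney -1.52 ± 0.17, limma adjusted p 6.84e-05, and liver minus kidney -1.80 ± 0.17, adjusted p 2.35e-05). GOAT_ENSP00000309031 held 3.03, 5.19 and 6.36 FPKM in heart, 7.42, 13.1 and 24.3 in liver and 16.2, 35.8 and 64.0 in kidney. Library 1 was the lowest and library 3 the highest in each tissue. Its heart minus kidney difference was -2.60 ± 0.52 (adjusted p 0.00199). Heart minus liver, -1.34 ± 0.52 (adjusted p 0.0591), and liver minus kidney, -1.26 ± 0.52 (adjusted p 0.0594), did not pass, and both passed with the replicate number as a block (adjusted p 0.00102 and 0.00111). Under the block, 56.5% of all models were called in heart against liver, 69.3% in heart against kidney and 70.9% in liver against kidney. GOAT_ENSBTAP00000010973 was at most 1.75 FPKM with no call, GOAT_ENSP00000246841 at most 0.0731 FPKM, and GOAT_ENSP00000373627 was listed at 0 in all libraries. Counted with these models in the main analysis, 12 of the 15 tested members were called in heart against kidney, beside 63.2% of all models. The counts were 8 in heart against liver (49.2% of all models) and 8 in liver against kidney (65%), and 5 were elevated in kidney (34.2%).

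The filter of potassium channels is not always written with these letters. A protein alignment across the filter found 16 further goat models related to the channel-type members (blastp, E value at most 1e-10), 2 of them the copies named above and the others with an altered filter such as TIGFG, SIGYG, TLGYG or TVGFG, or with a gap there. These relatives stood in for the named subunits and were chosen after the values had been seen. Of the 16, 7 were tested. Of these, GOAT_ENSBTAP00000021523 and GOAT_ENSBTAP00000009938-D2 exceeded 0.5 FPKM in heart libraries only, and GOAT_ENSBTAP00000031153 in liver libraries only. Such a model had to differ between tissues, so the counts and p-values of the relatives are a description. In heart against liver 6 of the 7 were called (3 higher in heart, 3 higher in liver), in heart against kidney 5 (3 higher in heart, 2 higher in kidney) and in liver against kidney 5 (3 higher in liver, 2 higher in kidney), beside the shares of all models given above. After median ratio scaling, 3 were called in each comparison with kidney and 0 of them were higher in kidney.

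The 2 tested relatives of the inward rectifier type were both highest in heart. GOAT_ENSBTAP00000003307, with TIGFG at the filter and 48.9% identity to GOAT_ENSP00000339960, held 85.2, 75.5 and 75.6 FPKM in heart, 4.48, 12.4 and 9.95 in liver and 10.8, 37.5 and 27.3 in kidney. Heart was above liver by 3.10 ± 0.45 (log2, limma adjusted p 0.000352) and above kidney by 1.77 ± 0.45 (adjusted p 0.00701). GOAT_ENSBTAP00000021523, also with TIGFG, held 15.9, 19.97 and 18.02 FPKM in heart and at most 0.208 FPKM in liver or kidney. Its heart minus liver difference was 4.06 ± 0.16 (adjusted p 4.67e-08) and its heart minus kidney difference 4.11 ± 0.16 (adjusted p 1e-07). The copy-suffixed Kv relative GOAT_ENSBTAP00000009938-D2, 77.4% identical to goat_GLEAN_10007798 over 235 residues, was highest in heart, at 2.28, 1.15 and 1.81 FPKM, whereas goat_GLEAN_10007798 was highest in kidney.

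Other relatives were highest in liver or kidney. GOAT_ENSBTAP00000005929, related to the tandem pore type at 30.2% identity, held 5.53, 33.8 and 34.8 FPKM in liver, 1.13, 3.94 and 1.995 in kidney and was listed at 0 in heart. Liver 1 was far below the other liver libraries. Liver minus kidney was 2.67 ± 0.60 (log2, limma adjusted p 0.0036). GOAT_ENSBTAP00000031153, related to the IK type with SIGYG at the filter, held 17.9, 4.09 and 1.65 FPKM in liver and at most 0.314 FPKM elsewhere, with liver minus kidney at 2.58 ± 0.57 (adjusted p 0.00316). Its liver libraries differed widely and still all lay above the other tissues. A second IK type relative with SIGYG, GOAT_ENSBTAP00000024292, was highest in kidney, at 6.24, 4.77 and 1.796 FPKM, with heart minus kidney at -1.25 ± 0.33 (adjusted p 0.00887) and liver minus kidney at -1.52 ± 0.33 (adjusted p 0.00312). Neither passed after median ratio scaling, at -0.78 (adjusted p 0.0924) and -0.95 (adjusted p 0.0505).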

How the data were processed

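Messenger RNA of goat heart, liver and kidney was sequenced from strand-specific (dUTP) libraries. Per the study's methods, the authors mapped reads with TopHat and quantified genes with Cufflinks (2.2.1 in the submitters' processing notes), and they deposited log2(FPKM + 1) per gene model and library. The logarithm was undone to give FPKM. No counts were in the table, so the depth of the libraries is unknown and no counting interval is given, and whether strand was used in quantification is not given in the sources used here. A deposited file of goat proteins gave sequence, scaffold, start, end and strand of each model, on the goat assembly used for that annotation, whose version the file does not state. The study names the CHIR assembly as its goat reference. The labels of the goat samples list UMD3.1, which the study names for cattle.

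Groups and replicate numbers came from the sample titles, and table columns were matched to samples by the column names in the labels. The labels name the goat heart columns differently, so these were assigned through the prefix, tissue and number that they share with the titles, and every heart value rests on that match. The study lists a second deposit of the same 3 heart samples under other sample numbers. The members, lists and tests were chosen with earlier results of these data known. Members were found by the filter letters, hydrophobic segments by a Kyte-Doolittle mean above 1.6 over 19 residues, and relatives with blastp 2.17.0. Tissues were compared with limma (version 3.58.1, in R 4.3.3) on the deposited log2 scale, with 1 coefficient for each tissue, moderation by eBayes along a mean-variance trend, all 9 goat libraries sharing the spread, and Benjamini-Hochberg adjustment over all tested models within each comparison. Fold changes on this scale understate the change of low genes. Models named were, per tissue, the 8 tested members of highest mean FPKM and, per comparison, the 5 called members of largest difference in each direction, beside untested members and relatives named after their values were seen.

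Alternatives were median ratio scaling, quantile normalization, equal summed FPKM, a pseudocount of 0.1, no filter, the study's filter (above 0.5 FPKM in over 80% of libraries), a minimum log2 difference of 1, the replicate number as a block, and leaving out each library with the tested models kept. Deviations of same-numbered libraries from their tissue means correlated in each of 9 pairs (r 0.146 to 0.472, across genes within library pairs). In 18 pairs with other numbers, r was -0.417 to 0.134. Deviations cancel out within a tissue, so these sets of pairs are not independent. The numbers were taken as a possible pairing, for the block alternative only. That reading comes from the data and not from the labels, which do not say what a number marks. P-values set a tissue difference against the moderated spread between these libraries, which the main analysis took as unpaired. The marker and subunit lists need gene symbols and were not applied. Cattle and sheep were not used.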

Additional observations from a re-analysis of the deposited data

How the results depend on the processing

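The 4 heart models of the inward rectifier type stayed elevated in heart under each alternative except the study's filter, which removed them. Elevated in kidney were 5 of 15 tested members in the main analysis, beside 34.2% of all models. The count was 3 of 14 after median ratio scaling (16.3% of all models), 8 of 34 without a filter (28.4%) and 3 with a minimum log2 difference of 1. Elevated in liver was 1 member with a pseudocount of 0.1 or a minimum log2 difference of 1 (2 in the main analysis). Without a filter 13 of 34 members were called in liver against kidney, beside 53.9% of all models. In the main analysis 8 of 15 were called, beside 65%. No shares over all models were computed for the minimum log2 difference, the pseudocount of 0.1, the study's filter or the left-out libraries. The study's filter left 3 members, none of the channel type, with 0 calls in heart against liver, 2 in heart against kidney, 1 in liver against kidney, and 0, 0 and 1 elevated in heart, liver and kidney. It removes models of a single tissue by construction. Leaving out single libraries gave 6 to 10 calls in heart against liver, 11 to 13 in heart against kidney and 7 to 9 in liver against kidney, with 4 to 4 elevated in heart, 1 to 2 in liver and 5 to 6 in kidney. The count of 1 in liver came without liver 1, kidney 2 or kidney 3, each time through GOAT_ENSBTAP00000014756. GOAT_ENSP00000409548, not called in the main analysis (liver minus kidney -0.13, limma adjusted p 0.76), reversed to 0.76 after median ratio scaling (adjusted p 0.0251), and the cause was not tested. Quantile normalization ended 3 calls that median ratio scaling also ended (heart minus kidney of GOAT_ENSP00000385552, -0.51, and GOAT_ENSBTAP00000025570, -0.04, and liver minus kidney of GOAT_ENSBTAP00000010914, -0.47). It added 2 calls, among them heart minus liver of GOAT_ENSBTAP00000013646 (-0.74). With the replicate number as a block, 9 members were called in heart against liver (56.5% of all models), 12 in heart against kidney (69.3%) and 9 in liver against kidney (70.9%). Apart from both calls of GOAT_ENSP00000309031 gained there, the block changed no other call.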
